A study of Homo sapiens with 6 samples.

Results

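The acute phase protein genes examined here were SAA1, SAA2, LCN2, HP, SERPINA1, SERPINA3, CP, LBP and ORM1. They were taken by symbol from the deposited tables, and every gene identifier under a symbol was kept apart. The 9 symbols stood for 10 of the 29889 gene identifiers with at least 1 count, because SERPINA3 had a pair of identifiers. A549, a human lung adenocarcinoma cell line, was transfected by lipofection with a pIRES-hrGFP-1a plasmid carrying CELF6, which encodes an RNA-binding protein that regulates splicing (CELF6-OE), or with the empty plasmid (Control). Cells were harvested after 48 h, with 3 biological replicates in each group, and their polyadenylated RNA was sequenced. All cells came from 1 cell line, both groups had been exposed to plasmid DNA and transfection reagent, and no untransfected cells were analysed here. No sorting for cells that took up the plasmid is described.

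Acute phase proteins are plasma proteins whose synthesis changes during infection and injury. The liver makes most of them after signals from IL-6 and IL-1, which act through STAT3, C/EBP factors and NF-kB, and epithelial cells of the lung and other barriers also make several. Positive acute phase proteins rise in this response, and negative ones such as albumin and transferrin decline. Among the genes examined, SAA1 and SAA2 encode serum amyloid A, an apolipoprotein of high-density lipoprotein. LBP hands bacterial lipopolysaccharide to CD14, and LCN2 withholds iron from bacteria by binding their siderophores. HP binds free hemoglobin, CP is a copper-containing ferroxidase and ORM1 is a lipid- and drug-binding glycoprotein. SERPINA1 inhibits neutrophil elastase, and SERPINA3 inhibits cathepsin G.

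SAA1 and SAA2 are shown first because their coding sequences are nearly alike, which bears on how reads were assigned to each. In GENCODE v44 (GRCh38), SAA1 (ENSG00000173432) lies on the plus strand of chromosome 11 from 18266260 to 18269977. SAA2 (ENSG00000134339) lies on the minus strand of the same chromosome from 18239223 to 18248668. The coding sequences of their canonical transcripts had 369 bases each and were identical at 358 of them (97.0%). Of the 369 windows of 150 bases in the SAA1 transcript, 37 (10.0%) occurred unchanged in the SAA2 transcript. Coding bases 175 to 324, counted from the A of the start codon, held 10 of the 11 differences, which are in capitals:

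SAA1: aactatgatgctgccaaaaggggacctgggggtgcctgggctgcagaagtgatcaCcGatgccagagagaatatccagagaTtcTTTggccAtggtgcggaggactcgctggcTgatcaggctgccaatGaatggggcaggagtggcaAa

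SAA2: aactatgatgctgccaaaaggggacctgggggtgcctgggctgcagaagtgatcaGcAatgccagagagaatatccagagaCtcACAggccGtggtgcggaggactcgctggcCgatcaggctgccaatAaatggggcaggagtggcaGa

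ORM1 on chromosome 9 (114323098 to 114326479) has a similar neighbour, ORM2, with 94.9% identity over 606 coding bases. For SERPINA3, the identifier ENSG00000196136 lies on chromosome 14 from 94612384 to 94624055. The other identifier, ENSG00000273259, runs from 94592058 to 94624646 and is annotated as a read-through gene. SERPINA3 exons covered 51.7% of its exonic bases and SERPINA5 exons 2.6%. How a read on the shared exons was assigned is not given in the sources used here, so counts of either identifier may derive from the other.

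Total counts on genes ranged from 33748328 to 35413404 in the CELF6-OE libraries and from 36422617 to 37920700 in the Control libraries. CELF6 had 18646, 20789 and 11571 counts in CELF6-OE replicates 1 to 3 and 0 in each Control library, so the libraries matched their labels. Epithelial keratin and A549 enzyme genes were abundant. KRT8, KRT18, AKR1B10 and ALDH1A1 each had at least 92819 counts in every library. SFTPC and SFTPA1, which mark alveolar type II cells, had at most 2 counts. Of the same marker list, SFTPB had 3 to 6 counts per library, NAPSA 17 to 54 and EPCAM 61 to 135. Leukocyte markers were mixed. PTPRC had at most 2 counts per library, whereas CD14 had 225 to 310, S100A9 53 to 152, ITGAM 54 to 109 and CD79A 12 to 24. The summed FPKM of the 13 markers in the tables ranged from 7.2 to 9.11 in the CELF6-OE libraries and from 7.61 to 11.6 in the Control libraries. CD14, at 3.02 to 4.53, and S100A9, at 2.53 to 6.95, had the highest FPKM among them. Replicates 1 and 3 of Control differed most among the pairs within a group, with a chi-square per degree of freedom over genes of 29.3, against 7.67 to 11.7 in the other 5 pairs, and all pairs differed by more than sampling noise. Hepatocyte markers were mixed. ALB, APOA1, APOB and TTR had at most 7 counts per library, whereas CPS1 had 1969 to 3741, APOH 197 to 637 and F2 97 to 240. FPKM, fragments per kilobase of transcript scaled to the mapped fragments of a library, is used below for levels. It adjusts for gene length, but the length used for each gene is not given in the sources used here. SAA2 has 2242 exonic bases in GENCODE v44 and 369 coding bases, so its FPKM depends on the length chosen.

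The level of the acute phase genes differed widely in Control cells. LCN2 had a mean FPKM of 15.6 ± 0.14 (SD, n = 3), CP of 14.5 ± 5.48 and SAA1 of 10.7 ± 2.67. The Control range of CP overlapped those of the other 2, whereas all 3 Control values of LCN2 were above those of SAA1. LBP at 3.48 ± 1.29, SERPINA1 at 3.29 ± 1.81 and ENSG00000273259 at 2.84 ± 0.26 formed a middle level in which the ranges of all 3 overlapped. SAA2 had an FPKM of 0.38 ± 0.064, ORM1 of 0.17 ± 0.070, and HP and ENSG00000196136 were listed at 0.04 or less in every library. In CELF6-OE the order changed to LCN2 at 13.4 ± 1.33, CP at 5.34 ± 1.08, ENSG00000273259 at 1.88 ± 0.19 and SAA1 at 1.78 ± 0.51, followed by SERPINA1 at 1.07 ± 0.40 and LBP at 0.74 ± 0.43. The ranges of ENSG00000273259 and SAA1 overlapped there, as did those of SAA1 and SERPINA1 and those of SERPINA1 and LBP.

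**Figure D1:**
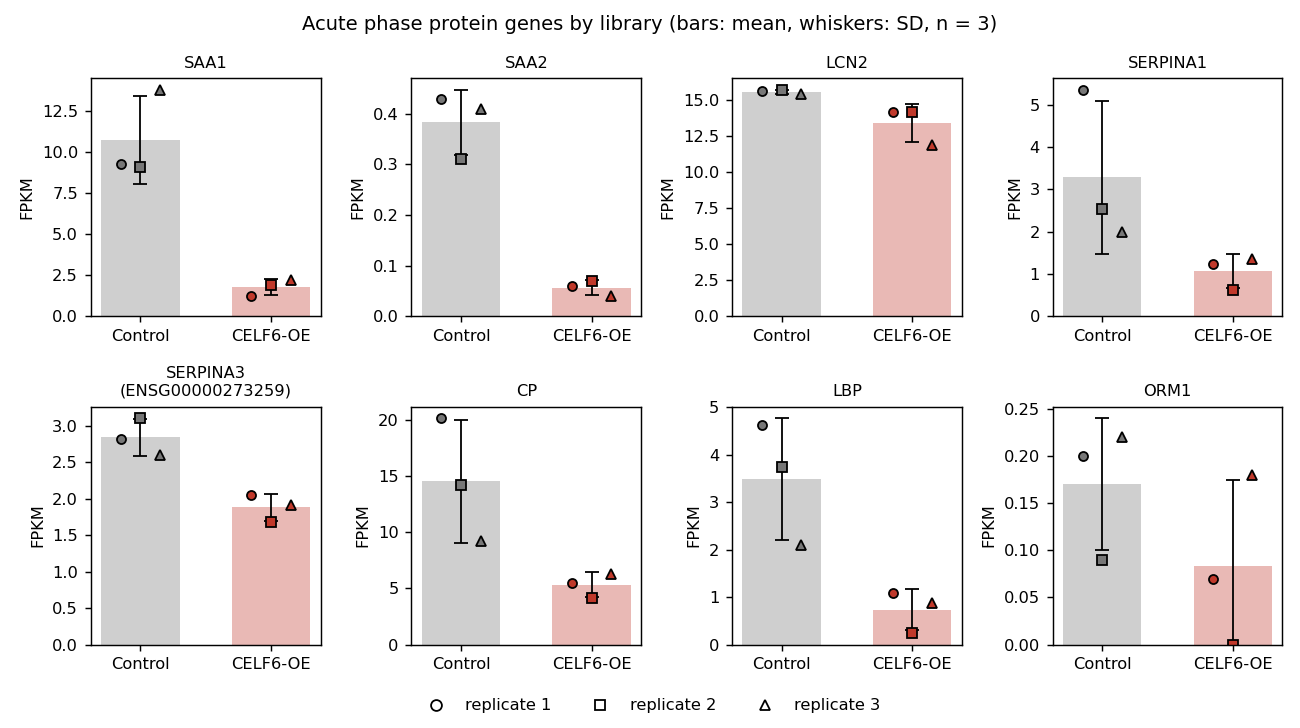
FPKM of 8 acute phase gene identifiers in each library, with the mean as a bar and the SD as a whisker (n = 3 per group) and a linear vertical axis from 0 that differs between panels. The CELF6-OE libraries lay below the Control libraries for all shown except ORM1, with the narrowest separation for LCN2.

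Read counts were compared between the groups with edgeR's quasi-likelihood test, and a gene was called where its Benjamini-Hochberg adjusted p was under 0.05 and its fold change at least 1.5. A filter on low counts (edgeR's filterByExpr) kept 15847 genes, among them 7 of the 10 identifiers. HP, ORM1 and ENSG00000196136 were dropped. Of the 7 tested, 6 were called lower in CELF6-OE, namely SAA1, SAA2, SERPINA1, ENSG00000273259, CP and LBP, where 5.82% of all genes tested were called lower. None was called higher, against 1.35% of all genes. LCN2 was not called. For each of the 7, every CELF6-OE library was below every Control library in CPM, the counts scaled to the normalized library size, which held for 20% of all genes tested. The median log2 fold change of the 7 was -1.64, and that of all genes tested was 0.011. These counts and the median of the 7 include SAA2, which passed the filter only through its Control libraries, where it is high. In bulk RNA, fewer cells that express a gene and less RNA per cell cannot be told apart.

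**Figure D2:**
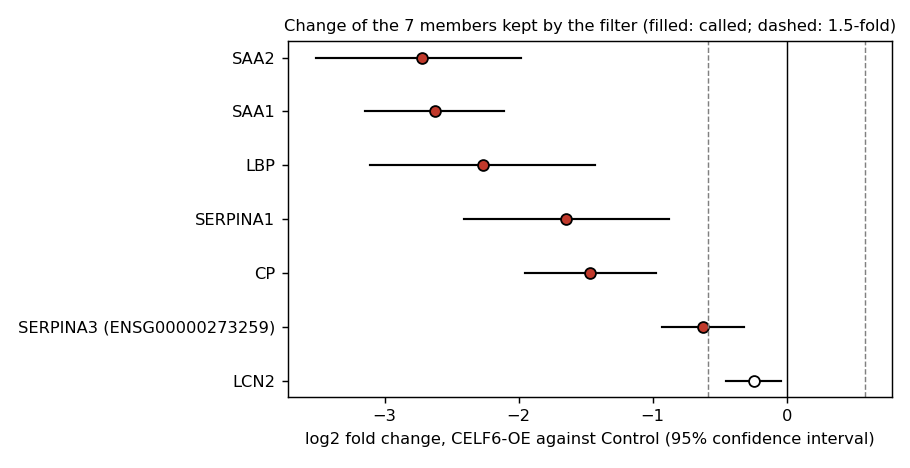
Log2 fold change of CELF6-OE against Control for the 7 identifiers tested, with 95% confidence intervals from edgeR's quasi-likelihood fit, filled circles for called genes and dashed lines at a 1.5-fold change. The estimates ran from -2.72 for SAA2 to -0.25 for LCN2, and the intervals of SAA2, SAA1, LBP, SERPINA1 and CP lay wholly beyond the 1.5-fold line.

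SAA2 and SAA1 had the lowest fitted log2 fold changes of the 7 identifiers tested, although the interval of LBP (-3.11 to -1.43) covered both. LBP was below SAA1 without CELF6-OE replicate 1 (-2.66 against -2.42) and without Control replicate 3 (-2.51 against -2.38), and below SAA2 on the log2(FPKM + 0.1) scale (-2.21 against -1.62). SAA1 had counts of 34, 54 and 60 in CELF6-OE against 270, 274 and 417 in Control, in the order of replicates 1 to 3. Its highest CELF6-OE library was 4.15-fold below its lowest Control library in CPM. The log2 fold change was -2.62 (standard error 0.23, adjusted p = 3.921e-05), which is a 6.17-fold lower level. SAA2 had counts of 5, 6 and 3 in CELF6-OE against 36, 27 and 36 in Control. Its log2 fold change was -2.72 (standard error 0.35, adjusted p = 0.000322). SAA2 passed the filter through its Control libraries only, and on the log2(FPKM + 1) scale, where its level is far below the added 1, its difference was -0.39 and it was not called.

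The log2 ratio of SAA1 to SAA2 counts was 3.28 ± 0.75 in CELF6-OE and 3.24 ± 0.32 in Control (SD, n = 3), a difference of 0.035 that was smaller than the spread between replicates (two-sided exact permutation test, p = 1). The read-through gene SAA2-SAA4, which shares 267 exonic bases with SAA2, had counts of 2, 4 and 4 in CELF6-OE against 21, 22 and 22 in Control, with a log2 fold change of -2.58. It passed the filter through its Control libraries only, and it is no independent support for SAA2. SAA4, a constitutively made member of the family, had at most 2 counts per CELF6-OE library and at most 7 per Control library.

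LBP (chromosome 20, 38346482 to 38377013) had counts of 77, 18 and 61 in CELF6-OE against 344, 288 and 162 in Control. CELF6-OE replicate 2 was far below the other CELF6-OE libraries, and Control replicate 3 was the lowest Control library, but the groups did not overlap. The log2 fold change was -2.26 (standard error 0.38, adjusted p = 0.00223). Without CELF6-OE replicate 2 it was -1.84, and LBP was still called.

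CP (chromosome 3, 149162410 to 149221829) had the most counts of the genes examined, with 935, 724 and 1043 in CELF6-OE against 3571, 2612 and 1700 in Control. Control replicate 1 had a 2.07-fold higher CPM than Control replicate 3. The log2 fold change was -1.46 (standard error 0.22, adjusted p = 0.00118). Without Control replicate 1, the highest library, it was -1.19 with an adjusted p of 7.404e-05 in edgeR's quasi-likelihood test.

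Of the inhibitors of neutrophil proteases, SERPINA1 was called lower, as was ENSG00000273259, the read-through identifier deposited under the symbol SERPINA3. SERPINA1 (ENSG00000197249, chromosome 14, 94376747 to 94390693) had counts of 182, 91 and 192 in CELF6-OE against 819, 403 and 316 in Control. The Control libraries spread over 2.55-fold in CPM, with replicate 1 far above the others. The log2 fold change was -1.64 (standard error 0.35, adjusted p = 0.00822). The adjusted p was 0.0723 when the prior of the quasi-likelihood dispersions was estimated robustly, so the call was lost in that setting, and the log2 fold change was -1.14 without Control replicate 1. 

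ENSG00000273259, deposited under the symbol SERPINA3, had counts of 118, 99 and 108 in CELF6-OE against 170, 195 and 163 in Control. The libraries within each group were close together. Its log2 fold change of -0.62 (standard error 0.14, adjusted p = 0.0106) lay near the 1.5-fold threshold. The call was lost without CELF6-OE replicate 2 (log2 fold change -0.54, adjusted p = 0.0551) and without Control replicate 2 (-0.55, adjusted p = 0.0699). ENSG00000196136, the identifier that GENCODE names SERPINA3, had 1 count in CELF6-OE replicate 1, 1 count in Control replicate 1 and none in the other libraries. The log2 ratio of SERPINA1 to ENSG00000273259 was 0.44 ± 0.50 in CELF6-OE and 1.42 ± 0.73 in Control. The difference of -0.98 had p = 0.1 in a two-sided exact permutation test (adjusted p = 0.167), the smallest p that 3 against 3 libraries allow, and the intervals of the fold changes overlapped.

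LCN2 (ENSG00000148346, chromosome 9, 128149071 to 128153453) had counts of 537, 548 and 438 in CELF6-OE against 617, 646 and 635 in Control. All CELF6-OE libraries were lower, with a gap of 1.08-fold between the nearest libraries of the groups. The log2 fold change was -0.25 (standard error 0.094, 95% confidence interval -0.45 to -0.039), with a p of 0.0237 and an adjusted p of 0.0938. The interval excluded a decrease as large as 1.5-fold. The adjusted p lay between 0.0493 and 0.301 over the alternatives, with the lowest value without Control replicate 1. The log2 ratio of SAA1 to LCN2 was -3.38 ± 0.55 in CELF6-OE and -1.01 ± 0.35 in Control, a difference of -2.37 with no overlap between the groups (two-sided exact permutation test, p = 0.1, adjusted p = 0.167 over the 5 pairs of genes compared).

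The promoter of LCN2 is shown because, of the member promoters searched, it was the 1 that matched NF-kB and C/EBP motifs. RefSeq promoter windows, 250 bases before to 50 after a gene start, were given for 4 of the 9 symbols (ORM1, LCN2, SERPINA1 and SERPINA3), with 2 starts for SERPINA1. SAA1, SAA2, HP, CP and LBP had none. The letters TTGCNNAA for C/EBP, TTCNNNGAA for STAT and TATAAA for the TATA box, and a 10-letter NF-kB consensus, were searched on both strands. NF-kB matched in 5.9% of all 35116 promoter windows, C/EBP in 10.5%, STAT in 7.7% and TATA in 11.5%. LCN2 held an NF-kB match on the minus strand whose first base lay at -175 and a C/EBP match at -143, which did not overlap. ORM1 held a TATA match at -29. No other match was found in the 5 windows. The RefSeq start of LCN2 used here lies downstream of the GENCODE start given above, so the printed stretch lies within the GENCODE gene. The stretch before the RefSeq start, chr9:128149203-128149452 on the plus strand of GRCh38.p14, is printed with both matches in capitals. A match is a description of letters, and binding was not measured.

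LCN2: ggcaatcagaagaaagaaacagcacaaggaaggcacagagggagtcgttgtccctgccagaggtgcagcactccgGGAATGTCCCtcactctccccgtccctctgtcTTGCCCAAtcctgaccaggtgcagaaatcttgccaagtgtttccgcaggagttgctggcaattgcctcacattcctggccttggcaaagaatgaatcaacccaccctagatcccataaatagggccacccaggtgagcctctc

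HP and ORM1 were too low for a direction to be given. HP (chromosome 16, 72054505 to 72061055) had 1 count in CELF6-OE replicate 1, 3 counts in Control replicate 2 and 0 in the other libraries. A count of 0 allows up to 3 counts, so no fold change is given. ORM1 had counts of 2, 0 and 5 in CELF6-OE against 6, 3 and 7 in Control, and the groups overlapped. The ratio of the summed counts, CELF6-OE to Control, scaled to library size, was 0.46 (95% exact binomial interval 0.16 to 1.18, which covers counting error only). ORM2 had at most 2 counts in any library. The log2 ratio of CP to HP differed by -1.09 between the groups (two-sided exact permutation test, p = 0.4), and it rests on at most 3 HP counts per library. The log2 ratio of SAA1 to CP was -4.20 ± 0.52 in CELF6-OE and -3.00 ± 0.88 in Control (exact permutation test, p = 0.1, adjusted p = 0.167).

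Within the groups, the libraries with the highest and lowest levels differed between genes. Levels were expressed as the log2 difference of each library from the mean of Control. CP was at 0.50, 0.045 and -0.55 in Control replicates 1 to 3, SERPINA1 at 0.79, -0.24 and -0.56, and LBP at 0.44, 0.18 and -0.62. These 3 genes were highest in Control replicate 1 and lowest in Control replicate 3. SAA1 was at -0.22, -0.21 and 0.43, with the highest level in Control replicate 3. In CELF6-OE, replicate 2 was the lowest for CP (-1.77), SERPINA1 (-2.34) and LBP (-3.75), whereas replicate 1 was the lowest for SAA1 (-3.10). CELF6-OE replicate 2 had the most CELF6 counts, and whether the CELF6 level has a part in these differences was not tested.

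**Figure D3:**
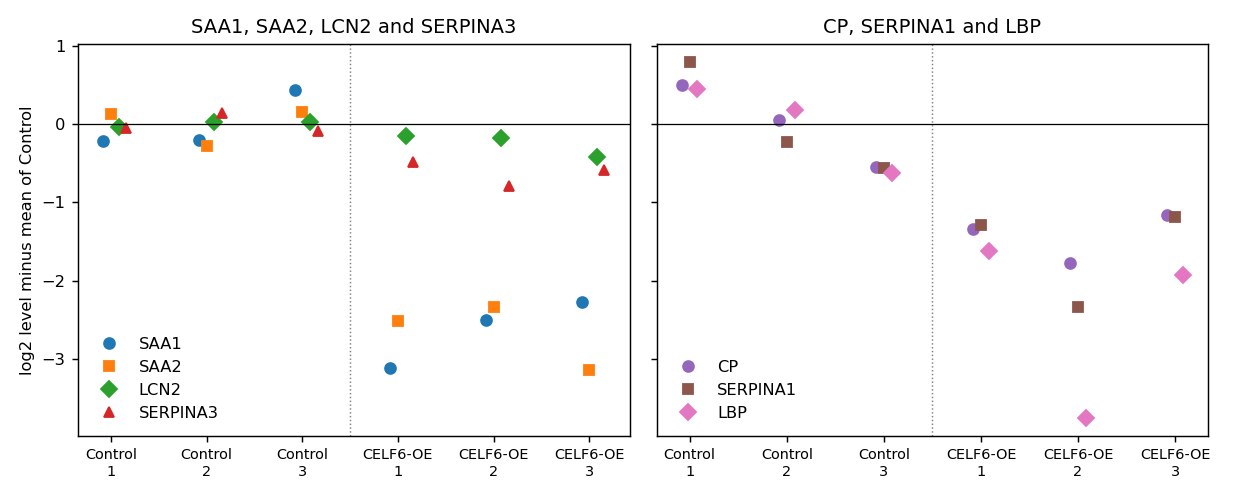
Level of the 7 identifiers tested in each library, as log2 CPM minus the mean of the 3 Control libraries (0 line), with SAA1, SAA2, LCN2 and SERPINA3 (ENSG00000273259) on the left and CP, SERPINA1 and LBP on the right. CP, SERPINA1 and LBP were highest in Control replicate 1 and lowest in CELF6-OE replicate 2, where LBP reached -3.75, while SAA1 was lowest in CELF6-OE replicate 1.

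Likeness between genes was measured as the root mean square difference of log2 CPM over the 6 libraries, each gene centred on its mean. Among the tested members it was smallest for LCN2 and ENSG00000273259 (0.24) and for SERPINA1 and CP (0.27). It was 0.47 for SAA1 and SAA2 and 0.84 for SAA1 and CP. The genes most like SAA1 among all genes tested were IL2RG (0.21), SAA2-SAA4 (0.21), DDO (0.23), HLA-B (0.25) and ETV7 (0.26). Genes much like CP were RARRES1 (0.13), NT5C3A (0.15), GBP3 (0.17) and MROH2A (0.17). For RARRES1, the counts were 287, 172 and 297 in CELF6-OE against 1008, 738 and 536 in Control, the same order of Control libraries as CP. The log2 fold changes of these 9 genes lay between -2.73 (DDO) and -1.28 (MROH2A). DDO, with 9, 11 and 16 counts in CELF6-OE, and SAA2-SAA4 passed the filter through Control only, where they are high. The likeness is dominated by the difference between the groups, and it is a description over 6 libraries.

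Other positive acute phase genes were mostly lower too. Of a list of 27 symbols, 26 were in the tables and 18 passed the filter, of which 14 were called lower, 1 was called higher and 3 were not called. The median log2 fold change was -1.10. These shares stand beside 5.82% called lower and 1.35% called higher among all genes tested. SERPING1, the C1 inhibitor, had a log2 fold change of -2.83, CFB, complement factor B, of -2.31 and AGT, angiotensinogen, of -1.30. C4B at -3.54, IL1RN, the IL-1 receptor antagonist, at -1.92 and C4A at -1.72 passed the filter through their Control libraries, where they are high, with at most 10 counts per CELF6-OE library. CFB, with 8, 14 and 18 counts in CELF6-OE against 94, 68 and 48 in Control, also passed through Control only. All of these are among the 14 called lower. C4A and C4B are nearly identical, and gene values came from uniquely mapped reads, so their counts rest on reads that tell them apart. C3, the central complement component, had counts of 4483, 5148 and 5409 in CELF6-OE against 11322, 11946 and 11618 in Control, with a log2 fold change of -1.14 (adjusted p = 1.078e-05). The fibrinogen genes FGA, FGB and FGG, named after their values were seen, had log2 fold changes of -1.20, -0.90 and -1.06, and like CP they were highest in Control replicate 1 and lowest in CELF6-OE replicate 2. PTX3, a long pentraxin, was the gene called higher, also named after its values were seen. It had counts of 82, 93 and 76 in CELF6-OE against 49, 40 and 38 in Control, with a log2 fold change of 1.05 (adjusted p = 0.00221). CRP, the classical short pentraxin, had 1 count in each of 2 libraries and 0 in the others.

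Fewer negative acute phase genes could be tested. Of 15 symbols, 14 were in the tables and 7 passed the filter, with 3 called lower, 1 called higher and a median log2 fold change of -0.42. Among all genes tested, 5.82% were called lower and 1.35% higher. TF, transferrin, had counts of 63, 21 and 69 in CELF6-OE against 430, 198 and 113 in Control, with a log2 fold change of -2.19 (adjusted p = 0.0098). AHSG had a log2 fold change of -1.28. It had 8 counts in CELF6-OE replicate 2 and passed the filter through Control only, where it is high. PON1 was also called lower, from 39 to 52 counts per Control library to 12 to 31 in CELF6-OE. TTPA, the vitamin E transfer protein, was the gene called higher, with a log2 fold change of 1.26. It had 16 to 24 counts per CELF6-OE library and 5 to 12 per Control library, and it passed the filter through CELF6-OE, the group where it is high. ALB had counts of 3, 2 and 1 in CELF6-OE against 6, 4 and 0 in Control, and it was not tested. Of the 15 hepatocyte markers looked up, 14 were in the tables and 6 passed the filter, and 3 of these (TF, AHSG and F2) were called lower. Their summed FPKM ranged from 15.2 to 25.0 in the CELF6-OE libraries and from 23.8 to 41.9 in the Control libraries, and whether a hepatocyte-like program has a part in the change of the acute phase genes was not tested.

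Among 14 cytokines that induce acute phase genes, 6 passed the filter and IL6 was the 1 called, where 5.82% of all genes tested were called lower. IL6 had counts of 57, 112 and 87 in CELF6-OE against 305, 310 and 289 in Control. Its log2 fold change was -1.75 (standard error 0.18, adjusted p = 9.372e-05), and the groups were far apart. IL1B, at 7 to 12 counts per library, and TNF, at 0 to 10, were below the filter, and both are named after their values were seen. LIF was close to 0 at -0.026. All 12 receptor genes looked up were tested, and 3 were called lower, with log2 fold changes of -1.94 for TNFRSF1B, -0.95 for IL22RA1 and -0.59 for OSMR. Another 3, named after their values were seen, passed the adjusted p but not the 1.5-fold threshold. IL6R, the IL-6 receptor, was higher in every CELF6-OE library than in every Control library, with a log2 fold change of 0.39 (adjusted p = 0.0339), while IL1R1 was at -0.44 and IL10RB at -0.40. IL6ST, the shared signalling chain, was at -0.14 (adjusted p = 0.528).

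Of 24 transcription factor and signal protein genes, 4 were called lower and none higher, beside 5.82% and 1.35% of all genes tested. The median log2 fold change of the 24 was -0.30. Among the 4 called lower were SOCS1 (-0.99), a feedback inhibitor of JAK kinases, and GATA6 (-0.73) and HNF4A (-0.73), which are regulators of endodermal and liver genes. Smaller differences passed the adjusted p but not the 1.5-fold threshold. There were 7 of them, all lower in CELF6-OE, namely STAT3, with a log2 fold change of -0.40 (adjusted p = 0.000794), SOCS3 at -0.55, NFKBIZ at -0.56, CEBPD at -0.45 and CEBPB at -0.34, with NFKB2 at -0.47 and NFKBIA at -0.42 named after their values were seen. STAT3 had 3781 to 4093 counts per library in CELF6-OE and 5381 to 5527 in Control, so its groups were well separated although the change was small.

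**Figure D4:**
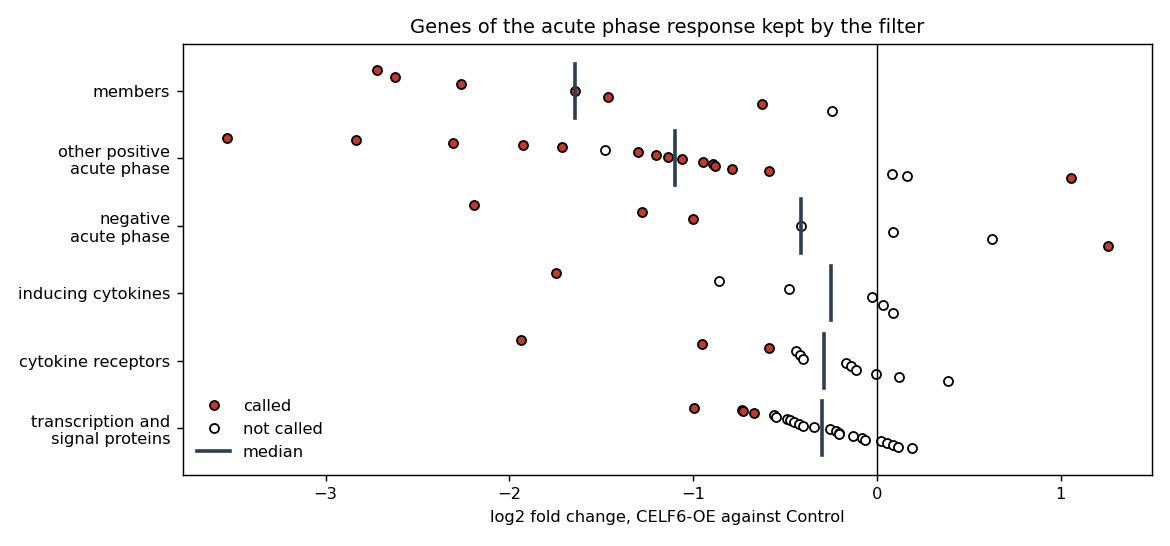
Log2 fold change of CELF6-OE against Control for the members and 5 lists of acute phase response genes that passed the filter, 1 circle per gene, filled where called, with the median of each list as a bar. The medians were -1.64 for the members, -1.10 for other positive acute phase genes and -0.42 or nearer to 0 for the other lists.

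Of 19 genes for receptors, partners and target proteases of the acute phase proteins, 9 were tested and 2 were called lower. TLR2 had a log2 fold change of -1.31 with at most 8 counts per CELF6-OE library, and it passed the filter through Control only. MMP9, whose protein forms a complex with LCN2, had a log2 fold change of -1.04. CD163, the hemoglobin-haptoglobin receptor, had at most 1 count per library. Of 18 paralogs and neighbours, 12 were in the tables and 3 were tested, and SAA2-SAA4 was the 1 called. SAA2-SAA4 passed the filter through Control only and shares exons with the member SAA2. Of the A549 and epithelial markers, 12 of 16 were tested and 1, CDH1, was called lower (log2 fold change -1.62). ITGAM was the 1 leukocyte marker called among 4 tested, with a log2 fold change of -0.73. Beside each of these lists stands the 5.82% of all genes tested that were called lower.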

How the data were processed

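Per the methods, the authors filtered reads (FASTX-Toolkit), used TopHat2 for alignment to GRCh38, and based gene values on uniquely mapped reads from directional libraries. The counting tool, its strand setting and annotation release are not given in the sources used here. The authors deposited raw read counts per gene and FPKM values given to 2 decimals for 3 libraries per group. GENCODE v44 held 97.1% of the deposited identifiers, on matching chromosomes.

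Counts were scaled with TMM and tested in edgeR 4.0.16 (R 4.3.3) with glmQLFit and glmQLFTest over the 15847 genes kept by filterByExpr (minimum count 10), with Benjamini-Hochberg adjustment. The prior degrees of freedom were 7.15. The common dispersion gave a biological coefficient of variation of 8.62%. A prior count of 0.125 entered the log2 fold changes. Ratios of genes used log2 counts with 0.5 added. No set test was run. The replicates were separate by label. Intervals of fold changes come from the quasi-likelihood fit and include the spread between replicates. The binomial interval and the floor of 3 counts cover counting error only.

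The members and lists were chosen with earlier results of these data known. Named from the lists were 9 fixed genes (IL6, STAT3, CEBPB, CEBPD, NFKBIZ, SOCS3, C3, CRP and ALB), up to 6 called genes per list with the largest change, and the 5 genes most like SAA1 or CP. Of the genes this rule names, 2 are not reported here. On simulated counts of this comparison with 15879 genes tested, 58% of 1.5-fold, 96% of 2-fold and 100% of 4-fold changes were recovered. Recovered means an adjusted p under 0.05 in the right direction, without the 1.5-fold threshold. Every gene was drawn at the trended dispersion, and only genes above a minimum mean count were changed. The rates therefore do not cover low-count genes or genes whose replicates spread more than the trend. Alternatives were other scalings, tests (DESeq2 1.42.0, limma 3.58.1), filters, thresholds, units, the replicate block and leaving out each library. Promoter and transcript sequences came from RefSeq (GRCh38.p14) and GENCODE v44. A planned comparison of protein sequences was not analysed here.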

Additional observations from a re-analysis of the deposited data

How the results depend on the processing

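Over 22 alternatives, 4 to 6 members were called lower, 16 of them gave the main count of 6, and 0 were called higher in each. The count was 4 on the log2(FPKM + 1) scale, 5 on the log2(FPKM + 0.1) scale, 5 with the robust prior, 5 at a fold change of at least 2, and 5 to 6 when a library was left out. The genes called lower among all 15847 tested were 922 in the main fit. They were 417 on the log2(FPKM + 1) scale, 769 on the log2(FPKM + 0.1) scale and 907 with the robust prior. Leaving out a library gave 672 (CELF6-OE replicate 2) to 989 (Control replicate 1). Every fold change of the 7 members tested kept its direction over the 19 alternatives that refit it. SAA1, CP and LBP were called in all 19 and LCN2 in none. SAA2 lost its call in 1 and SERPINA1 in 1, and ENSG00000273259 in 4, which were both FPKM scales and leaving out CELF6-OE replicate 2 or Control replicate 2. The range of the log2 fold change was -2.81 to -2.07 for SAA1 and -1.89 to -0.99 for SERPINA1. Adding 1 count in place of 0.5 moved each of the 5 ratios between members by less than the spread between replicates.

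With the replicate block, 6 members were called lower and 0 higher. The labels do not say whether libraries of the same replicate number were handled together. Deviations from the group mean correlated at -0.0023, -0.012 and -0.067 between libraries of the same number. No CELF6-OE library correlated best with the Control library of its number. These correlations, tied by centring over 3 libraries, cannot exclude a pairing. With 3 libraries per group, an exact permutation test cannot go below 0.1. Low counts limit HP, ORM1 and ENSG00000196136, where up to 3 counts are compatible with a count of 0. For ENSG00000196136, a low level and the assignment of reads on exons shared with ENSG00000273259 cannot be told apart.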
